A study of Homo sapiens with 18 samples.

Results

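Most replication-dependent histone genes lie in 3 clusters, called HIST1 on chromosome 6 and HIST2 and HIST3 on chromosome 1. The open chromatin of these clusters was followed by ATAC-seq in PC9 lung cancer cells. The hg19 windows ran from 26 to 27.9 Mb on chromosome 6 for HIST1, from 149.75 to 149.9 Mb on chromosome 1 for HIST2 and from 228.6 to 228.66 Mb on chromosome 1 for HIST3. Peaks of all 18 libraries were merged wherever they shared 1 bp. Of the 79483 regions this gave on chromosomes 1 to 22 and X, 146 overlapped a window, 135 of them in HIST1, 6 in HIST2 and 5 in HIST3. They are called window regions, whether or not histone genes lie beside them. Members were taken by position, with no threshold on scores or calls.

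ATAC-seq uses a transposase to insert sequencing adapters into accessible DNA. PC9 is an established human lung adenocarcinoma line driven by mutant EGFR, and all 6 groups of 3 libraries came from it. The PC9 group was the unsorted population given the vehicle DMSO. The DTP group, for drug-tolerant persisters, held the unsorted cells that outlived 8 days of erlotinib at 1 µM, which inhibits the EGFR kinase. Sorted cells made up 4 further groups, the ALDH-low and ALDH-high fractions, sorted by FACS with the Aldefluor assay of aldehyde dehydrogenase activity, after 12 h of DMSO or after 12 h of 1 µM erlotinib. Sorting followed treatment, so the cells of a fraction with the drug may not be those of the fraction without it, and DTP cells are survivors of a long exposure. Labels name the 3 libraries per group a, b and c and do not say whether these were separate cultures. P-values therefore reflect only how these libraries vary, and that variation may be technical. Read depth is unknown. The lists held 26225 to 45241 peaks, and a region missing from a list was not called there, which is not the same as closed chromatin. In bulk material such as this, fewer cells with an open region and less signal per cell cannot be told apart.

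Replication-dependent histone genes encode the H1 linker histone and the core histones H2A, H2B, H3 and H4 that package newly made DNA. They are transcribed mainly in S phase, lack introns, and give mRNAs that end in a stem-loop in place of a poly(A) tail. A nuclear compartment, the histone locus body, gathers at the clusters and holds the coactivator NPAT. The RefSeq gene table used here, of build GRCh38.p14, listed 70 protein-coding genes with older HIST1, HIST2 or HIST3 symbols: 55 in HIST1, 12 in HIST2 and 3 in HIST3. By family these were 6 H1, 17 H2A, 18 H2B, 15 H3 and 14 H4 genes. That build differs from the hg19 of the peaks, so the table gave only names and neighbours, and no peak was assigned to a gene.

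Along chromosome 6 the table placed 32 histone genes from H1-1 to H4C8, then a stretch without histone genes up to H2BC11, then 5 histone genes to H2AC12, a second stretch up to H2BC13, and 16 histone genes from H2BC13 to H2BC17. The first stretch held 47 tRNA genes and 6 genes of the butyrophilin family, which encode immunoglobulin-like membrane proteins of immune regulation, and the second held 51 tRNA genes. Together the stretches held 98 of the 465 tRNA genes in the table (21.1%). Neighbouring histone genes transcribed away from each other formed 13 pairs, and 9 of these paired an H2A with an H2B gene, an arrangement in which a single accessible stretch can serve a pair of promoters.

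The sequences shown are the 200 bases before the start of 1 promoter for each family, because the families share short motifs there. They are RefSeq sequences of GRCh38.p14 on chromosome 6, written 5′ to 3′ on the strand of the gene. Capitals mark 4 motifs searched on both strands. These were CCAAT, which reads as ATTGG on the opposite strand, and TATAAA, which reads there as TTTATA. The others were the octamer ATTTGCAT known from H2B promoters, with ATGCAAAT as its opposite strand, and AAACACA, a box known from H1 promoters, which reads as TGTGTTT on the opposite strand. The motifs do not overlap one another in these promoters.
H1-1: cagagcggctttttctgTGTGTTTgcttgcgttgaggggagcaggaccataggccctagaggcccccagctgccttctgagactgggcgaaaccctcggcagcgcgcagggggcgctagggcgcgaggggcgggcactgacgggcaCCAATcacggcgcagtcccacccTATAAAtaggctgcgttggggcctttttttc
H2AC4: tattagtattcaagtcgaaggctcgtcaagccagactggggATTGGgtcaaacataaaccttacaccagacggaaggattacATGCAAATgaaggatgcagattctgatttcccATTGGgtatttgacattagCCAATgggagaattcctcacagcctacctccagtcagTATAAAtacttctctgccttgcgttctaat
H2BC3: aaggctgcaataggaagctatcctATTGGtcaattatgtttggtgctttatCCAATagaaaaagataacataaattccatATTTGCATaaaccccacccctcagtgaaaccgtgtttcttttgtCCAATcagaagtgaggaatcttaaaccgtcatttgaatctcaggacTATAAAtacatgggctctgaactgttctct
H3C1: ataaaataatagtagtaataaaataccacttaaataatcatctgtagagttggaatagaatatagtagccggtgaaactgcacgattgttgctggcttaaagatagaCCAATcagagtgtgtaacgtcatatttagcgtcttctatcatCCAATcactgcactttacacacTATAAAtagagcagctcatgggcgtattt
H4C2: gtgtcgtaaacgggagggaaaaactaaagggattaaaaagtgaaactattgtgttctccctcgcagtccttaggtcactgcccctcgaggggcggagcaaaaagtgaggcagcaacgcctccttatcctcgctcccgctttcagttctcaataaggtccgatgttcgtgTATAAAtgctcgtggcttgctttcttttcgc

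In H2BC3 the octamer began 120 bases before the start and TATAAA 30 bases before it, with CCAAT or ATTGG at 76, 149 and 176 bases. H2AC4 carried the octamer on the other strand at 118 bases and TATAAA at 30. H1-1 alone among these 5 had the AAACACA box, as TGTGTTT at 183 bases. In H4C2 the only match was TATAAA at 31 bases. Over the 250 bases before the start, CCAAT stood in 56 of the 65 histone promoters found in the table (86.2%) against 33.0% of all 27305 promoters, and in every H1, H2A, H2B and H3 promoter but only 3 of 12 H4 promoters. TATAAA stood in 66.2% of the histone promoters against 11.1% of all. Where it was on the strand of the gene, it began 25 to 35 bases before the start in 36 of 38 histone promoters (94.7%), against 33.4% of the 1959 promoters that carried it in the whole table. The octamer was in 14 of 18 H2B promoters (77.8%), 11 of 16 H2A promoters (68.8%), 1 of 13 H3 promoters and no H1 or H4 promoter, against 1.66% of all. AAACACA was in 6 of 6 H1 promoters and in no promoter of the other families, against 4.95% of all. A match describes the letters only.

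Regions lay more densely in the windows than over whole chromosomes. The windows held 69.2 regions per Mb, against 27.0 over the stretches of chromosomes between the first and last region. Density was not compared with other gene-rich stretches. The median region of the windows was 1336 bp wide against 999 bp for all regions, and 20.5% were over 2 kb against 8.80%. All 18 libraries held 34 of the 146 regions (23.3%, against 17.7% of all regions), at least 16 libraries held 57 (39.0% against 24.7%), and a single library held 17 (11.6% against 21.2%). Regions merged from several libraries grow wider the more libraries hold them, so width and number of libraries are not independent measures.

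HIST1 was divided at 26.3, 27.05, 27.15 and 27.75 Mb into a left, a middle and a right histone part and 2 intervals between them. These bounds came from general knowledge of the cluster's layout in hg19, not from an annotation file. With HIST2 and HIST3 counted as histone parts, 57 of the 146 window regions lay in histone parts and 89 in the intervals. Regions over 2 kb made up 38.6% of those in histone parts. In the intervals they made up 8.99%, near the 8.80% of all regions. The left histone part stood out in width: its 24 regions had a median of 2323 bp, 14 of them (58.3%) were over 2 kb, and 18 (75%) were held by at least 16 libraries. The 11 regions of the middle part had a median width of 1242 bp and 3 were held by at least 16 libraries. In the right part 5 of 11 were, with a median width of 1613 bp. The left interval held 35 regions, 12 of them (34.3%) in all 18 libraries. The right interval, with the second stretch of tRNA genes by the order of the table, was the most densely filled of the intervals, with 54 regions or 90.0 per Mb. Its regions were narrower (median 1140 bp, 3.70% over 2 kb) and fewer were shared, 8 of 54 (14.8%) being in all 18 libraries.

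**Figure D1:**
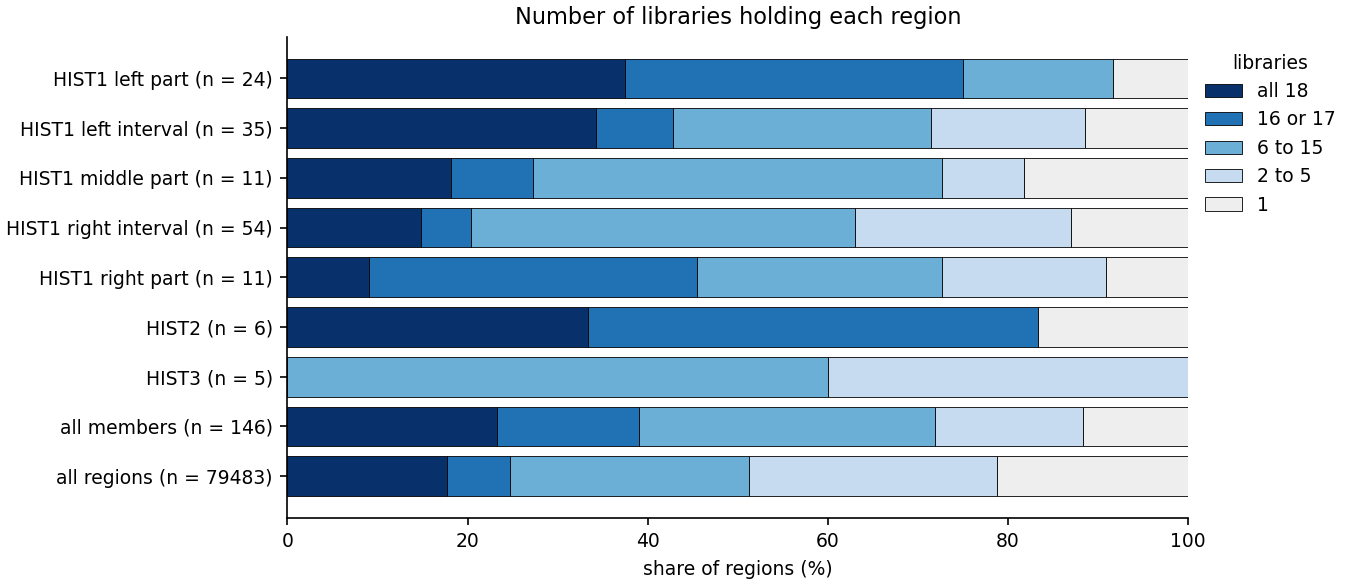
Share of regions (x axis, %) held by all 18, 16 or 17, 6 to 15, 2 to 5 or a single library, for each part of HIST1, for HIST2 and HIST3, for the 146 regions of the windows and for all 79483 regions. The left part of HIST1 and HIST2 have the longest bars for 16 or more libraries (75% and 83.3%), and no region of HIST3 was in all 18.

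HIST2 had 6 regions, of which 5 were held by at least 16 libraries. One of these, at chr1:149855895-149860678, was the widest of all 146 at 4784 bp. The next widest were 3930 bp at chr6:27098946-27102875 and 3398 bp at chr6:27113006-27116403, both in the middle part of HIST1, and 3515 bp at chr6:26156072-26159586 and 3513 bp at chr6:26215058-26218570, both in the left part. All 5 were held by all 18 libraries. HIST3 had 5 regions and none in all libraries.

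A region of HIST3 at chr1:228603540-228604700, singled out after its values were seen, was held by all 12 sorted libraries and by none of the 6 unsorted ones. Its deposited scores ran from 90.0 to 358. Only 27 of all regions (0.0340%) had this pattern and 115 (0.145%) the reverse, none of the latter in the windows. Sorting, the time of exposure and any difference in handling cannot be told apart here, since no group was both unsorted and treated for 12 h.

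The share of open chromatin that fell in the windows was lowest in persister cells. Of every 1000 peaks, 2.67, 2.56 and 2.58 fell in the windows in the PC9 libraries a, b and c, and 1.87, 2.01 and 1.88 in those of DTP. All 3 DTP values lay below those of the other 15 libraries. The sorted DMSO libraries were highest, with 2.91, 3.28 and 3.00 in ALDH-low and 2.96, 2.87 and 2.89 in ALDH-high cells. With 12 h of erlotinib they were 2.56, 2.61 and 2.58 in ALDH-low and 2.58, 2.45 and 2.51 in ALDH-high cells, below every sorted DMSO library. Group means were 2.60 ± 0.0557 in PC9 and 1.92 ± 0.0753 in DTP (SD, n = 3), 3.06 ± 0.192 and 2.90 ± 0.0460 in ALDH-low and ALDH-high DMSO cells, and 2.58 ± 0.0244 and 2.51 ± 0.0657 after erlotinib. Shares are given without a test. How common such separation is in other stretches is given below, for HIST1 only.

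Covered bases showed the same difference for persisters. Of every 1000 covered bases, 3.01 ± 0.105 lay in the windows in PC9 and 1.98 ± 0.0589 in DTP, with no overlap between the libraries. In ALDH-high cells erlotinib libraries (2.70 to 2.94) lay below DMSO libraries (3.21 to 3.45). In ALDH-low cells the ranges overlapped, at 2.77 to 2.96 after erlotinib and 2.96 to 3.27 under DMSO. How often other stretches of the genome separate in covered bases was not computed.

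**Figure D2:**
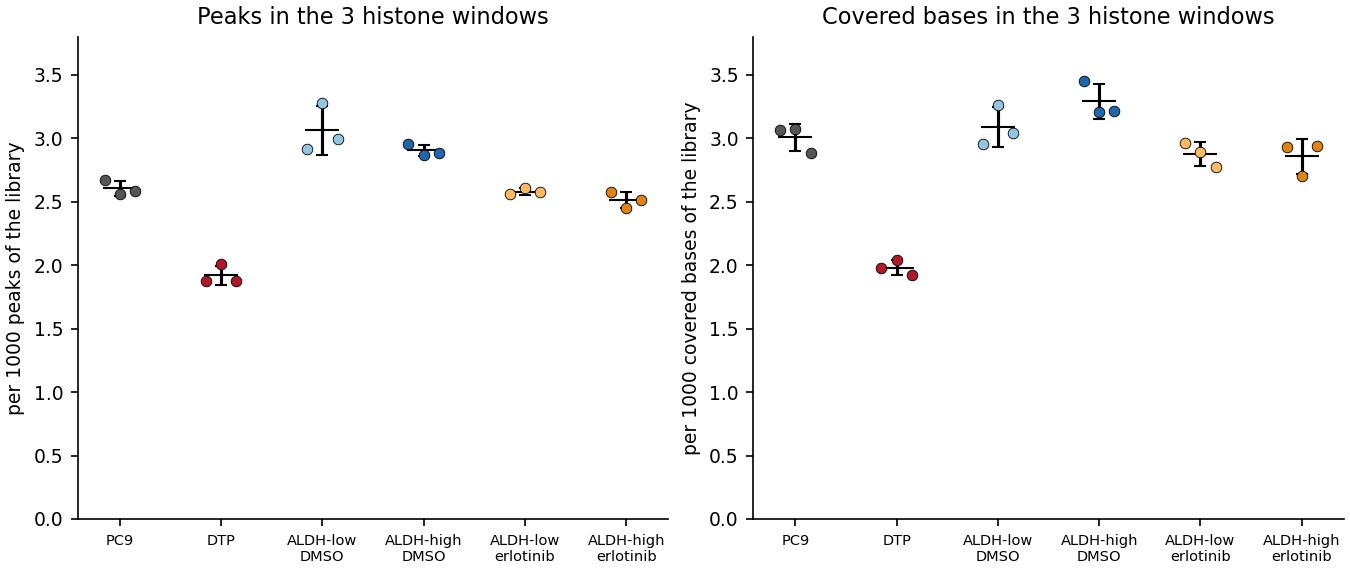
Peaks (left, per 1000 peaks) and covered bases (right, per 1000 covered bases) in the 3 histone windows, by group. Points are libraries, dashes the mean and bars the SD over 3 libraries. DTP lies lowest on both axes, at 1.92 peaks and 1.98 bases per 1000.

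The lists also differed in length, and DTP lists were longer than PC9 lists. DTP held fewer of the 146 regions in absolute number all the same, 79, 85 and 81 against 101, 96 and 104 in PC9. As a share, PC9 held 68.7% ± 2.77 of the window regions and 50.2% ± 1.53 of all regions, whereas DTP held 55.9% ± 2.09 and 55.0% ± 2.02. ALDH-low cells held 53.2% ± 3.45 of the window regions under DMSO and 62.1% ± 5.14 after erlotinib, while their share of all regions was 32.9% ± 0.132 and 45.6% ± 5.04. The corresponding ALDH-high values were 60.3% ± 3.62 and 63.9% ± 7.51 of the window regions, and 38.9% ± 1.73 and 48.0% ± 4.55 of all. With every list limited to the 26225 highest-scoring peaks, the shares per 1000 peaks were 2.72 ± 0.172 in PC9 and 1.59 ± 0.123 in DTP. The part of read depth in these shares was not tested.

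The lower share in DTP was present in the histone parts and in the intervals. Histone parts had 1.13 ± 0.0551 peaks per 1000 in PC9 and 0.875 ± 0.0656 in DTP, and intervals 1.48 ± 0.0583 and 1.04 ± 0.0423, without overlap in either. In HIST2 the values overlapped (0.140 ± 0.0240 and 0.120 ± 0.0222), as in HIST3 (0.0573 ± 0.0277 and 0.0454 ± 0.0224), each of which had no more than 7 peaks in any PC9 or DTP library. For 12 h of erlotinib, intervals were lower without overlap in both fractions (1.37 to 1.41 against 1.55 to 1.87 in ALDH-low, 1.17 to 1.43 against 1.51 to 1.65 in ALDH-high cells). Histone parts were lower without overlap in ALDH-low cells (1.17 to 1.23 against 1.29 to 1.41) and overlapped in ALDH-high cells (1.08 to 1.28 against 1.22 to 1.4). Per 1000 covered bases, however, histone parts overlapped in both fractions. They had 1.46 to 1.60 after erlotinib against 1.48 to 1.57 under DMSO in ALDH-low cells, and 1.55 to 1.63 against 1.57 to 1.84 in ALDH-high cells. Intervals were lower without overlap in covered bases too (1.29 to 1.39 against 1.45 to 1.70, and 1.12 to 1.39 against 1.53 to 1.63). No background of other stretches was computed for histone parts or intervals alone. Among stretches as long as HIST1, lower shares without overlap were common, as given below.

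Other stretches of the genome give the background for HIST1. Of 822 tiles of 1900 kb, the length of the HIST1 window, with a mean of at least 20 peaks, 27.3% were lower in DTP than in PC9 without overlap, so that a lower share is in itself common. The size differed: HIST1 had 1.75 ± 0.0452 peaks per 1000 in DTP against 2.41 ± 0.0630 in PC9, a ratio of 0.728, where the median tile had 0.980 and 13 tiles (1.58%) had a lower ratio. After 12 h of erlotinib HIST1 was lower without overlap in ALDH-low cells (ratio 0.850, where 14.5% of tiles were lower without overlap) and in ALDH-high cells (ratio 0.863, where 11.1% were). Of the tiles, 9.98% and 7.42% had lower ratios than HIST1 in these comparisons. Between ALDH-high and ALDH-low cells the HIST1 libraries overlapped, with ratios of 0.958 under DMSO (8.64% of tiles lower without overlap) and 0.973 under erlotinib (7.66%). The tiles were added after the shares had been seen.

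Single regions were compared first by their calls. A gained region was in all 3 libraries of the group named first and absent from the 3 lists it was set against, and a lost region the opposite. Against PC9, DTP lost 7 of the 129 window regions held by any library of the pair (5.43%, against 3.68% of all regions) and gained 1 (against 6.75% of all). Of the 7, 5 lay in the right interval and 2 in the middle histone part, and none in the left part, in HIST2 or in HIST3. They were at chr6:27569192-27570907, chr6:27463162-27464236, chr6:27124842-27126431, chr6:27520609-27521821, chr6:27618206-27619787, chr6:27543489-27544476 and chr6:27106745-27107986. The gained region was at chr6:27535851-27536768, in the right interval as well. Of the 7 lost calls, 4 remained with a score of at least 100, 2 with lists of equal size and 4 with peaks required to cover 50% of a region. The 2 at 27.464 and 27.570 Mb remained under all 3 settings, and so did the gained call.

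In ALDH-low cells 12 h of erlotinib gained 3 of 123 window regions (2.44%, against 6.82% of all) and lost 3 (2.44%, against 0.887%). In ALDH-high cells none of 126 was gained (against 4.52% of all) and 2 were lost (1.59%, against 0.998%). The regions gained in ALDH-low cells were at chr6:26232928-26235573 and chr6:26065904-26066736, both in the left histone part, and at chr6:26364953-26366160 in the left interval. Those lost were the regions at 27.570, 27.464 and 27.544 Mb, and the 2 lost in ALDH-high cells were those at 27.570 and 27.544 Mb. None of the 3 gained calls held under every setting: that at 26.234 Mb ended with peaks required to cover 50% of a region, and the other 2 with a score of at least 100 and with lists of equal size. Of 135 window regions held by any sorted library, these 2 were thus lost with erlotinib in both fractions (1.48%, against 0.160% of all) and none was gained (against 1.55%). With a score of at least 100, and with lists of equal size, 1 of the 2 remained, that at 27.570 Mb.

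The region at 27.570 Mb, 1716 bp wide, was the clearest of these by score. PC9 libraries a, b and c gave deposited scores of 192, 213 and 228, where 70 was the lowest score in any list. ALDH-low DMSO libraries gave 127, 151 and 102, and ALDH-high DMSO libraries 178, 161 and 174. No DTP library and no erlotinib library of either fraction held it, so the groups did not overlap. The region at 27.544 Mb, 988 bp wide, had the same calls with lower scores: 133, 120 and 85.9 in PC9, 111, 101 and 80.9 in ALDH-low DMSO and 113, 90.5 and 71.3 in ALDH-high DMSO libraries. Several of these lie near the floor of 70, and the call of this region as lost in DTP ended under each of the 3 settings above. Over all regions, 26 (0.0327%) were held by the 9 libraries without erlotinib and by none of the 9 with it, and the reverse was true of 320, none of them in the windows. The pattern was singled out after the calls were seen.

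The other regions lost in DTP varied more between the sorted groups. The region at 27.464 Mb had scores of 120, 148 and 174 in PC9, was held by all ALDH-low and 2 of 3 ALDH-high DMSO libraries, and after 12 h of erlotinib was in 1 ALDH-high library at 71.2. That at 27.126 Mb, in the middle histone part, had 170, 148 and 106 in PC9 and was held by 11 of the 12 sorted libraries, with and without erlotinib. The regions at 27.521, 27.619 and 27.107 Mb had scores between 79.1 and 127 in PC9 and were each held by 2 to 5 of the 12 sorted libraries. The gained region at 27.536 Mb had 144, 121 and 154 in DTP and was held by 4 sorted libraries, 3 of them treated with erlotinib.

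**Figure D3:**
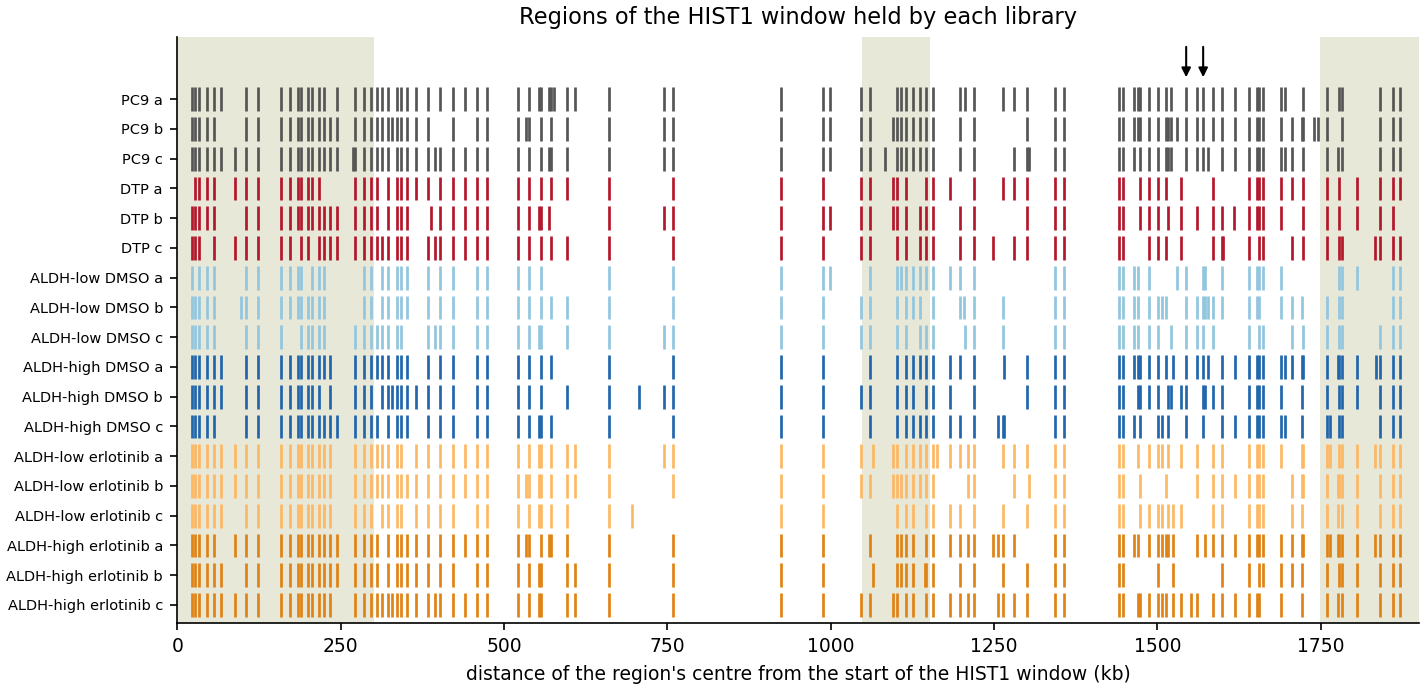
Regions of the HIST1 window held by each of the 18 libraries (rows), by the distance of the region's centre from the start of the window (x axis, kb). Shaded stretches are the histone parts, and arrows mark the 2 regions, 1544.0 and 1570.0 kb into the window, held by every PC9 and sorted DMSO library and by no DTP or erlotinib library.

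Between the ALDH fractions, few window regions differed in calls. Under DMSO, ALDH-high cells gained 2 of 118 (1.69%, against 1.28% of all) and lost none (against 0.140%). They were at chr6:27472938-27474164, in the right interval, with scores of 81.0, 82.4 and 93.8, and at 26.234 Mb in the left part, with 84.6, 93.4 and 72.0. All lie close to the floor, and neither call remained with a score of at least 100 or with lists of equal size. Under erlotinib none of 122 was gained (against 0.893%) or lost (against 0.446%). Over both treatments none of 135 was gained (against 0.0186%) or lost (against 0%).

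The same calls were tested over the 12 sorted libraries by an exact two-sided permutation test for each region, with treatment labels exchanged within fractions and Benjamini-Hochberg adjustment over all 31082 regions whose difference can vary. The smallest possible p was 0.005. Of the 65 window regions among these, 2 were held less often after erlotinib at an unadjusted exact p under 0.05 (against 1.16% of all regions) and 1 more often (against 8.93%). The 2 were those at 27.570 and 27.544 Mb, held by 6 of 6 DMSO and 0 of 6 erlotinib libraries, each with an exact p of 0.005 and an adjusted p of 0.141. The 1 was at 26.366 Mb, held by 1 of 6 DMSO and 6 of 6 erlotinib libraries (exact p = 0.02, adjusted p = 0.198). No region of the 31082 passed the adjusted exact permutation test at 0.05, while 2775 were higher and 360 lower before adjustment.

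That adjustment depended on which regions were counted as testable. Over the 6480 regions whose calls allow an exact p under 0.05 at all, 15 of them in the windows, the adjusted exact p was 0.0294 for the 2 lost regions and 0.0413 for the region at 26.366 Mb. This set of regions was chosen after seeing the data. The loss at 27.544 Mb in both fractions ended with a score of at least 100 and with lists of equal size. So did the gain at 26.366 Mb in ALDH-low cells. With fraction labels exchanged within treatments, none of 62 window regions reached an unadjusted exact p under 0.05 in either direction (against 0.356% higher and 0.0285% lower of 28055 regions), and no region passed adjustment.

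Score ranks gave a second view of the regions that all libraries held. The 14070 regions held by all 18 libraries were ranked by their highest score within each library, and 34 of them lay in the windows, 14 in histone parts and 20 in intervals. A percentile of 100 is the highest score in a library. The 34 are the steadiest of the 146 and do not stand for the rest. Their median position over libraries was at percentile 33.9, and 6 had a median above 50. The median of the 34 was at percentile 29.7 in PC9, 18 in DTP, 48.0 and 40.8 in ALDH-low and ALDH-high DMSO cells, and 37.0 and 34.9 after erlotinib.

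The 14 regions in histone parts had a median percentile of 39.7 and the 20 in intervals 27.5, with 3 of the 14 and 10 of the 20 below percentile 25 and 2 and 4 above 50. This difference was not tested. The region at chr6:27218355-27220290 led with a median percentile of 82.9 and a range of 71.8 to 92.4 over the 18 libraries, followed by chr6:27439796-27441606 with 73.9 (54.7 to 90.3), both in the right interval. Highest in the histone parts were chr6:27098946-27102875 in the middle part, also the second widest, with 58.8 (38.3 to 92.6), and chr6:26122394-26125183 in the left part with 57.9 (27.4 to 79.6). The ranges of these 4 overlapped. The next were at 26.660, 27.343, 26.538, 26.474, 26.056 and 26.988 Mb, with medians of 57.2, 53.7, 49.1, 48.4, 48.3 and 47.2, and their ranges over the libraries overlapped.

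Differences in rank were tested with limma on normal scores, which turn each library's ranks into standard normal values, with Benjamini-Hochberg adjustment over the 14070 regions. Against PC9, 4 of the 34 regions ranked lower in DTP at an adjusted p under 0.05 (against 7.88% of all) and none higher (against 5.54%, and none of the 34 at an unadjusted p under 0.05). The 4 lay at the right edge of the left histone part and in the interval beside it. That histone part and that interval held 9 and 12 of the 34. The median difference over the 34 was -0.24, against 0.04 over all regions, and 23 of the 34 were below 0, against 47.2% of all.

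The largest of these differences was at chr6:26295836-26297522, in the left histone part. Its percentiles were 79.1, 75.2 and 72.4 in PC9 and 0.0888, 15.6 and 13.6 in DTP, so the groups were far apart. Sorted libraries ranged from 19.8 to 76.6. The difference was -2.44 ± 0.423 normal score units (SE, limma adjusted p = 0.000726).

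The region at chr6:26341354-26342568 had 70.1, 39.3 and 57.8 in PC9 against 7.82, 3.49 and 15.1 in DTP, a difference of -1.57 ± 0.358 (limma adjusted p = 0.00586). That at chr6:26321888-26323826 had 73.5, 58.0 and 46.6 against 11.1, 28.3 and 5.38, a difference of -1.38 ± 0.328 (limma adjusted p = 0.00792). Neither pair of groups overlapped. The fourth, at chr6:26555999-26557689, ranked low throughout, with 5.41, 16.5 and 35.6 in PC9 and 0.405, 0.785 and 2.60 in DTP (-1.35 ± 0.322, limma adjusted p = 0.0081). The call at 26.323 Mb ended without DTP library c (-1.15, limma adjusted p = 0.0540) and that at 26.557 Mb without PC9 library c (-1.04, limma adjusted p = 0.0599).

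After 12 h of erlotinib the 3 regions whose rank fell over both fractions were all in the left interval. That interval held 12 of the 34. The 3 of 34 were a smaller share than the 10.6% of all regions that fell. None of the 34 rose (against 9.68%, and none at an unadjusted p under 0.05 by limma). The median difference over the 34 was -0.20 against 0.02 over all regions, and 27 of 34 were below 0, against 48.3% of all. In the histone parts the median was -0.13 and in the intervals -0.33, a difference between them that was not tested.

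The region at 26.557 Mb had percentiles of 34.7, 12.1 and 12.7 in ALDH-low DMSO libraries and 1.41, 1.5 and 0.942 after erlotinib. In ALDH-high cells it had 33.1, 14.9 and 38.1 under DMSO and 3.33, 5.76 and 2.20 after erlotinib. All 6 erlotinib libraries lay below all 6 DMSO libraries, and the difference was -1.28 ± 0.228 (limma adjusted p = 0.000325).

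At chr6:26536718-26539306, ALDH-low cells had 78.6, 89.7 and 56.2 under DMSO and 39.6, 23.1 and 58.4 after erlotinib, which overlapped, and ALDH-high cells 78.9, 76.2 and 48.5 against 5.26, 22.8 and 29.7, which did not (-1.23 ± 0.250 over both, limma adjusted p = 0.00114). At 26.323 Mb the DMSO libraries ranged from 31.8 to 81.7 and the erlotinib libraries from 16.7 to 29.1, without overlap (-1.09 ± 0.232, limma adjusted p = 0.00169). Both this region and that at 26.557 Mb also ranked lower in DTP than in PC9, comparisons whose group means share no library with those of the sorted cells. The tests were not independent, since the same fit over all 18 libraries gave the spread for both. The region at 26.538 Mb did not pass in DTP (-0.24 ± 0.354, limma adjusted p = 0.702).

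Within each fraction, 2 regions ranked lower in ALDH-low cells (against 6.79% of all) and none higher (against 5.37%), and 3 lower in ALDH-high cells (against 3.97%) and none higher (against 3.85%). In ALDH-low cells they were those at 26.557 Mb (limma adjusted p = 0.00832) and 27.357 Mb (limma adjusted p = 0.0160). In ALDH-high cells they were those at 26.538, 26.557 and 26.323 Mb (limma adjusted p = 0.0129, 0.0226 and 0.0271). None of the 3 in ALDH-high cells passed without DMSO library a (limma adjusted p from 0.0569 to 0.0965) or without erlotinib library a (from 0.0630 to 0.0843). Without ALDH-high DMSO library c, erlotinib library b or erlotinib library c, 2, 2 and 1 of the 3 remained. The call at 27.357 Mb ended without ALDH-low DMSO library a or c or ALDH-low erlotinib library a or c (limma adjusted p from 0.0537 to 0.0819).

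The effect of erlotinib was not shown to differ between fractions at any window region. The interaction of treatment and fraction passed the adjusted limma test at none of the 14070 regions in either direction (0% higher and 0% lower), where 586 and 540 had an unadjusted p under 0.05. Among the 34, 1 had an unadjusted p under 0.05, the region at 27.357 Mb, with a limma adjusted p of 0.350.

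**Figure D4:**
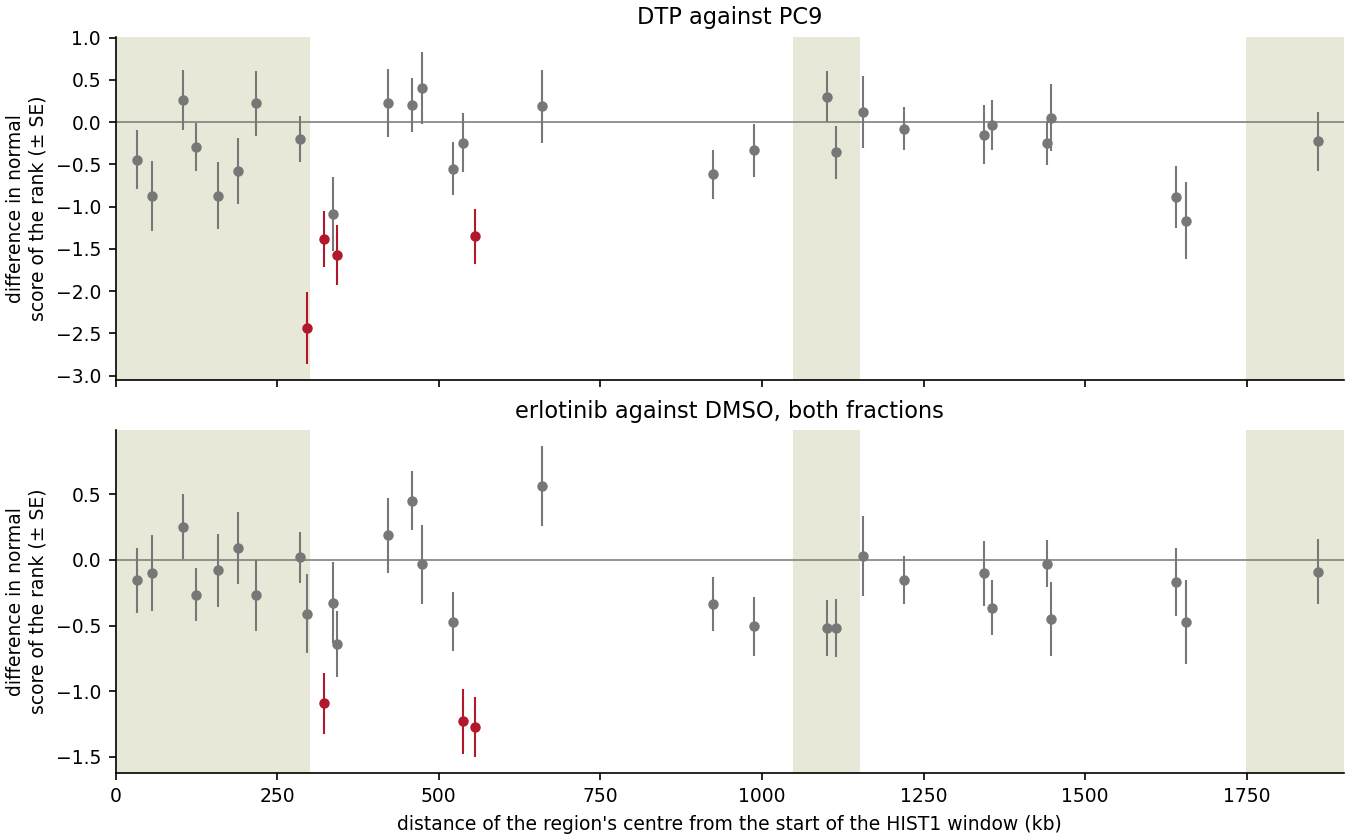
Difference in the normal score of the rank (y axis, mean ± SE from limma) for the 32 regions of HIST1 held by all libraries, by distance from the start of the window (x axis, kb), for DTP against PC9 (top) and erlotinib against DMSO over both fractions (bottom). Red marks an adjusted p under 0.05, and shading marks the histone parts. All red points lie below 0, in the left histone part or the left interval.

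Between the ALDH fractions 1 window region passed the rank test, a call that did not hold under all alternatives. At chr6:27356043-27357181, in the right interval, percentiles under DMSO were 58.5, 35.6 and 57.4 in ALDH-low and 2.41, 2.53 and 4.35 in ALDH-high cells. The groups did not overlap, and the difference was -1.89 ± 0.293 (limma adjusted p = 0.0194). It was the only 1 of all 14070 regions lower in ALDH-high cells under DMSO at a limma adjusted p under 0.05 (0.00711%), with 0.0284% higher. At an unadjusted p under 0.05 by limma, 707 regions were lower and 698 higher. PC9 had 29.6, 27.4 and 33.9 and DTP 16.7, 25.9 and 48.3. After erlotinib ALDH-low cells had 8.12, 29.4 and 9.11 and ALDH-high cells 8.46, 4.14 and 7.98, which overlapped.

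The call under DMSO ended when only the 2 groups compared entered the fit (limma adjusted p = 0.770), and without ALDH-low DMSO library a (limma adjusted p = 0.0649) or ALDH-high DMSO library a (limma adjusted p = 0.0945). Over both treatments the difference was -1.15 ± 0.208 (limma adjusted p = 0.0370), the 1 window region lower (against 0.0284% of all), with none higher (against 0.0853%). Leaving out any of 9 of the 12 sorted libraries ended that call, all but ALDH-low DMSO b and ALDH-high DMSO b and c (limma adjusted p from 0.0518 to 0.0675). Under erlotinib none of the 34 was lower (against 0.00711%) or higher (against 0.149%), and 1 was lower and none higher at an unadjusted p under 0.05 by limma.

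**Figure D5:**
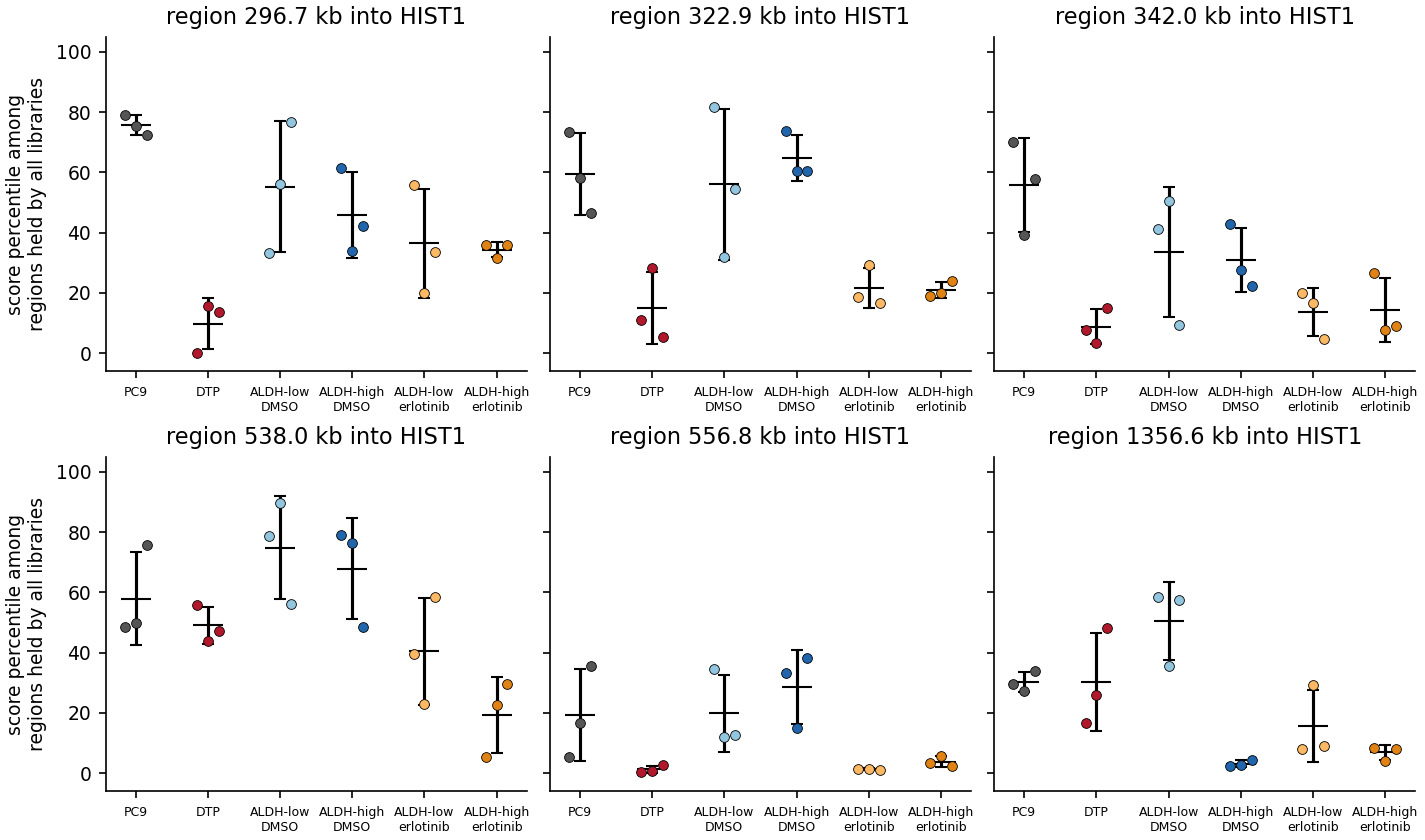
Score percentile among the 14070 regions held by all libraries (y axis, 100 highest) of the 6 window regions that passed the limma test in any comparison, titled by distance into HIST1. Points are libraries, dashes means and bars the SD over 3 libraries. In the region 296.7 kb into HIST1, PC9 lies from 72.4 to 79.1 and DTP from 0.0888 to 15.6.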

How the data were processed

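Each of the 18 ATAC-seq libraries came with 1 deposited peak list. Per the submitters' processing notes, the authors used BWA, MACS 1.4.2 and hg19; the remaining steps and settings were not given in the sources used here. The deposited score of a peak is the authors' own, on an unstated scale, and served to rank peaks or filter them inside 1 list. The windows, members and lists were chosen with earlier results of these data known.

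Merging joined peaks of chromosomes 1 to 22 and X that shared 1 bp, and bedtools 2.31.1 gave the same 79483 regions. Calls were tested by exact permutation over 400 label assignments, and ranks with limma 3.58.1 (R 4.3.3) on normal scores, with 6 group means and 12 residual degrees of freedom. Both procedures were run on simulated data with planted differences, in which libraries varied independently. Such data do not show how the tests behave where real libraries vary otherwise. Regions named are those gained or lost, those past the rank test, the 10 highest-ranking and the 5 widest; no window region was held by all 3 libraries of 1 group and by no other library. The promoter shown is the first of each family from H1-1 on; H2AC1 and H2BC1, which precede H1-1 apart from the other genes, were passed over. Where a gene had several promoters in the table, the first was used. Alternatives were a score of at least 100, lists of equal size, peaks covering 50% of a region, region midpoints, the log2 of the deposited score, fewer groups or other regions in the rank test, a replicate block and each library left out. Regions stayed those of the full lists.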

Additional observations from a re-analysis of the deposited data

How the results depend on the processing

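Scores near the floor of 70 and unknown depth limit the calls, and counts this small move with single libraries. Membership by midpoint changed no count. In DTP against PC9, 7 lost regions became 9 with a score of at least 100 and with lists of equal size, of which 4 and 2 were among the 7, and stayed 7 with peaks covering 50% of a region, of which 4 were, and leaving out each library gave 1 to 2 gained. Over all regions, the 2425 lost became 1899, 2042 and 2346 under these settings in turn. Leaving out each library raised the 4446 gained over all regions to between 5031 and 6056. With a score of at least 100, counts became 1 lost for erlotinib in ALDH-low cells, 2 gained in ALDH-high cells, 1 gained and 1 lost in both fractions (the region at 27.570 Mb), 4 gained under DMSO for the ALDH-high against the ALDH-low fraction, and, before adjustment of the exact permutation test, 2 higher and 1 lower. Over all regions, counts with that score were 342 lost in ALDH-low cells (469 before) and 2321 gained in ALDH-high cells (2567 before). They were 970 gained and 86 lost in both fractions (1000 and 103 before), and 519 gained for ALDH-high against ALDH-low under DMSO (582 before). With lists of equal size the window counts became 1 gained and 7 lost in ALDH-low cells, 1 gained and 4 lost in ALDH-high cells, 1 lost in both (again that at 27.570 Mb), 0 gained and 1 lost for ALDH-high against ALDH-low under DMSO, 1 gained and 1 lost under erlotinib, and 2 higher and 4 lower by the exact test. Over all regions, lists of equal size gave 1423 gained and 1159 lost in ALDH-low cells, from 3607 and 469. In ALDH-high cells they gave 1220 and 982, from 2567 and 567, and in both fractions 328 lost, from 103. For ALDH-high against ALDH-low they gave 210 gained and 172 lost under DMSO, from 582 and 64. Under erlotinib they gave 316 and 249, from 512 and 256. With peaks covering 50% of a region, erlotinib gained 5 window regions in the ALDH-low and 1 in the ALDH-high fraction, and 2 were lost under erlotinib for ALDH-high against ALDH-low. Over all regions these counts were 3874, 2821 and 305, from 3607, 2567 and 256. Adjusting over regions that can reach an exact p under 0.05, chosen after seeing the data, gave 1 higher and 2 lower. For the exact test, counts under these settings are of window regions only, without the share of all regions. The cause of these shifts was not tested.

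Shares per 1000 peaks became 2.77 in PC9, 1.77 in DTP and 2.63 in ALDH-low erlotinib libraries with a score of at least 100, and 2.72 and 1.59 in PC9 and DTP with lists of equal size. Covered bases became 3.16 in PC9 and 1.81 in DTP with that score, and 1.62 in DTP with lists of equal size. DTP stayed below PC9 without overlap in each. The share of other stretches doing so was not computed under these settings.

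For score ranks (limma), using only the groups compared gave 7 lower regions in DTP, 1 in ALDH-low cells with erlotinib, and 0 for ALDH-high against ALDH-low under DMSO and over both treatments. Ranking the regions held by all libraries of a contrast gave 8 lower of 53 in DTP, 1 in each ALDH fraction with erlotinib, 1 higher over both fractions, and 0 for the fractions under DMSO and over both treatments. The log2 score gave 4 lower in ALDH-low cells with erlotinib. Rank counts under these alternatives are of window regions only, without the share of all regions. None of the 14 differences in rank that passed the test turned its direction under the alternatives run for it.

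Library letters showed no pairing in the score ranks of regions held by all libraries. Correlations of deviations between groups ran from -0.0223 to 0.0212 over 45 same-letter pairs, and 5 of 18 libraries correlated best with their own letter. Pairing in list length, shares or calls was not checked this way. With a replicate block the region at 27.357 Mb no longer passed over both treatments (0 lower, limma adjusted p = 0.0637), and 0 regions in place of 1 were higher with erlotinib in the exact test, whose smallest p is then 0.0312. The block changed no other count.

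Leaving out each library gave 4 to 9 gained in ALDH-low cells with erlotinib (9 without ALDH-low erlotinib c), 1 to 4 gained (4 without ALDH-high erlotinib b) and 2 to 5 lost (5 without ALDH-high DMSO b) in ALDH-high cells, and 0 to 1 gained in both. Over all regions, gained calls in ALDH-low cells rose from 3607 to between 4239 and 5995, the most without ALDH-low erlotinib c. In ALDH-high cells 2567 gained became 3252 to 4615, and 567 lost became 696 to 1017. In both fractions 1000 gained became 1057 to 1305. Among window regions, ALDH-high against ALDH-low gave 3 to 6 gained under DMSO (6 without ALDH-high DMSO b), and 0 to 1 gained and 0 to 1 lost under erlotinib. Over all regions, the 582 gained under DMSO became 1094 to 1368. Under erlotinib the 512 gained became 697 to 1498, and the 256 lost became 388 to 869. The exact test gave 1 to 6 higher with erlotinib (6 without ALDH-low erlotinib c). Rank counts were 1 to 4 lower in ALDH-low, 0 to 3 in ALDH-high cells and 3 to 5 over both fractions with erlotinib, where 0 to 1 was higher, and 0 to 1 lower for the fractions, both under DMSO and over both treatments. These exact-test and rank counts are of window regions only, without the share of all regions.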
